A study of Mus musculus with 9 samples.

Results

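The growth hormone and insulin-like growth factor (IGF) axis was followed in mouse liver through 10 genes chosen by symbol, of 56748 genes in the count table: the growth hormone receptor and its transducer (Ghr, Stat5b), the circulating ligand and its partner (Igf1, Igfals), feedback inhibitors (Socs2, Cish), a repressor (Bcl6) and 3 IGF binding proteins (Igfbp1, Igfbp2, Igfbp4). All 10 were found under their own symbol. In colitis mice given indirubin, Igf1 was lower in each of the 3 livers than in any Control liver, Ghr was at 8.77 and 8.81 CPM (counts per 1000000 reads after scaling) in 2 of the 3, where every other liver held 42.6 or more, and Igfbp1 was high in the same 2. With every library included, none of these differences had an adjusted p under 0.05 in edgeR's quasi-likelihood test, the main test used here; Igf1 against Control did with DESeq2, and Igfbp1 did in edgeR when genes with low counts were not filtered out. Socs2 was the member in which the DSS libraries stood apart from both other groups, below each of them.

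Growth hormone from the pituitary binds its receptor on hepatocytes and acts through JAK2 and STAT5B to switch on transcription of Igf1, of Igfals, the acid-labile subunit that holds IGF-1 in a long-lived serum complex, and of the inhibitors Socs2 and Cish. IGF binding proteins set how much IGF-1 is free: Igfbp1 is made by hepatocytes and is held down by insulin, while Igfbp2 and Igfbp4 are made by several cell types. Inflammation and fasting are known to make the liver less responsive to growth hormone, and the pulsatile male pattern of growth hormone drives many male-biased liver genes.

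The animals were C57BL/6J mice, 7 to 8 weeks old when obtained and thus older when the livers were taken, with 3 livers in each of 3 groups. DSS mice drank 1.8% dextran sulfate sodium, a polymer that injures the colon, in 3 cycles of a week with a week of recovery after each, and received 200 µL of sterile water by mouth every day. Indirubin mice had the same colitis protocol and received indirubin, the poorly soluble red bisindole of the herbal product indigo naturalis, at 1 g/kg/day in the same volume of water. Control mice are labelled water. The labels name DSS for the other 2 groups alone, but the design text does not exempt the Control mice from it, so whether they also drank DSS is not certain. The libraries were made from 400 ng of whole-liver RNA, so fewer cells of a type and less RNA per cell cannot be told apart. The labels name separate livers by number without naming the animals, and p-values measure only the spread between these samples.

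The libraries held 6514863 to 7944684 counted reads, but 71.6% to 91.3% of them came from the mitochondrial genome, which left 569044 to 2132208 reads on nuclear genes. The mitochondrial share was 71.6% in Indirubin-2, 77.2% in Indirubin-3 and 72.4% in DSS-3, and 85.8% or more in the other 6 libraries; the first 2 of these also carry the low Ghr and high Igfbp1 values, and the part of RNA composition in them was not tested. A member with a low level therefore rested on few reads: Cish had 0 to 17 per library and Bcl6 0 to 28. The hepatocyte marker list summed to 11120 to 23980 normalized CPM over all libraries, with all 8 markers present in each. Hnf4a, the nuclear receptor that defines hepatocytes, had a log2 difference of 0.02 between Indirubin and DSS, with an interval of 2 standard errors from -0.70 to 0.74. The list as a whole had a median log2 fold change of -0.36 in that comparison, where that of all genes was 0.15. Of its 8 genes, 5 were lower and 3 higher with indirubin, Cps1 the most (0.73, edgeR adjusted p = 0.780). An edgeR p under 0.05 was met by 2, both lower and without overlap, where 7.68% and 16.4% of all genes were so called. They were the protease inhibitor Serpina1c (-1.34, edgeR adjusted p = 0.500) and the thyroid hormone carrier Ttr (-1.32, edgeR adjusted p = 0.582). Against Control, 3 of the 8 had an edgeR p under 0.05, all lower, where 13.8% of all genes had one. The median was -0.75, against 0.13 for all genes, and 3 were higher, Trf the most (1.06, edgeR adjusted p = 0.392). The part of these differences in the members' values was not tested. The sex of the mice is not given in the labels, but Ddx3y, on chromosome Y, had 18 to 155 reads in every library, and Xist, which is expressed from the inactive X chromosome, had 8 reads in Indirubin-2 and 0 in the other 8 libraries. In Indirubin-2 and Indirubin-3, 14 pancreatic acinar genes, digestive enzymes and their cofactors, summed to 1545 and 1539 CPM, against 0 to 18.5 CPM in the other 7 libraries. Of the 14, 14 and 13 were detected in those 2 libraries, while 6 to 14 were at 0 reads in each of the others. These are the same libraries in which Ghr was low, and the part of pancreatic RNA in the results was not tested.

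Per kilobase of gene model (normalized RPKM, the CPM divided by gene length), the binding proteins had the highest means over all groups: Igfbp4 averaged 31.5 RPKM over the 9 libraries, Igfbp2 25.6 and Igfbp1 16.9. Igf1 came next at 7.23 RPKM, followed by Ghr at 4.26, Igfals at 3.09, Stat5b at 1.20, Socs2 at 0.534, Bcl6 at 0.255 and Cish at 0.078. The ranges over libraries of every 2 neighbours in this order overlapped, whereas the lowest Igfbp4 value, 19.8 RPKM, lay above the highest Igf1 value, 14.2 RPKM. Igfbp1 had a wide range, from 1.40 to 66.4 RPKM, and its highest value was the highest of any member. Its place rested on the Indirubin group, with a mean of 33.0 RPKM: in Control, Igf1 (10.7 RPKM) and Igfbp1 (10.1 RPKM) were close, as they were in DSS (6.69 and 7.56 RPKM).

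**Figure D1:**
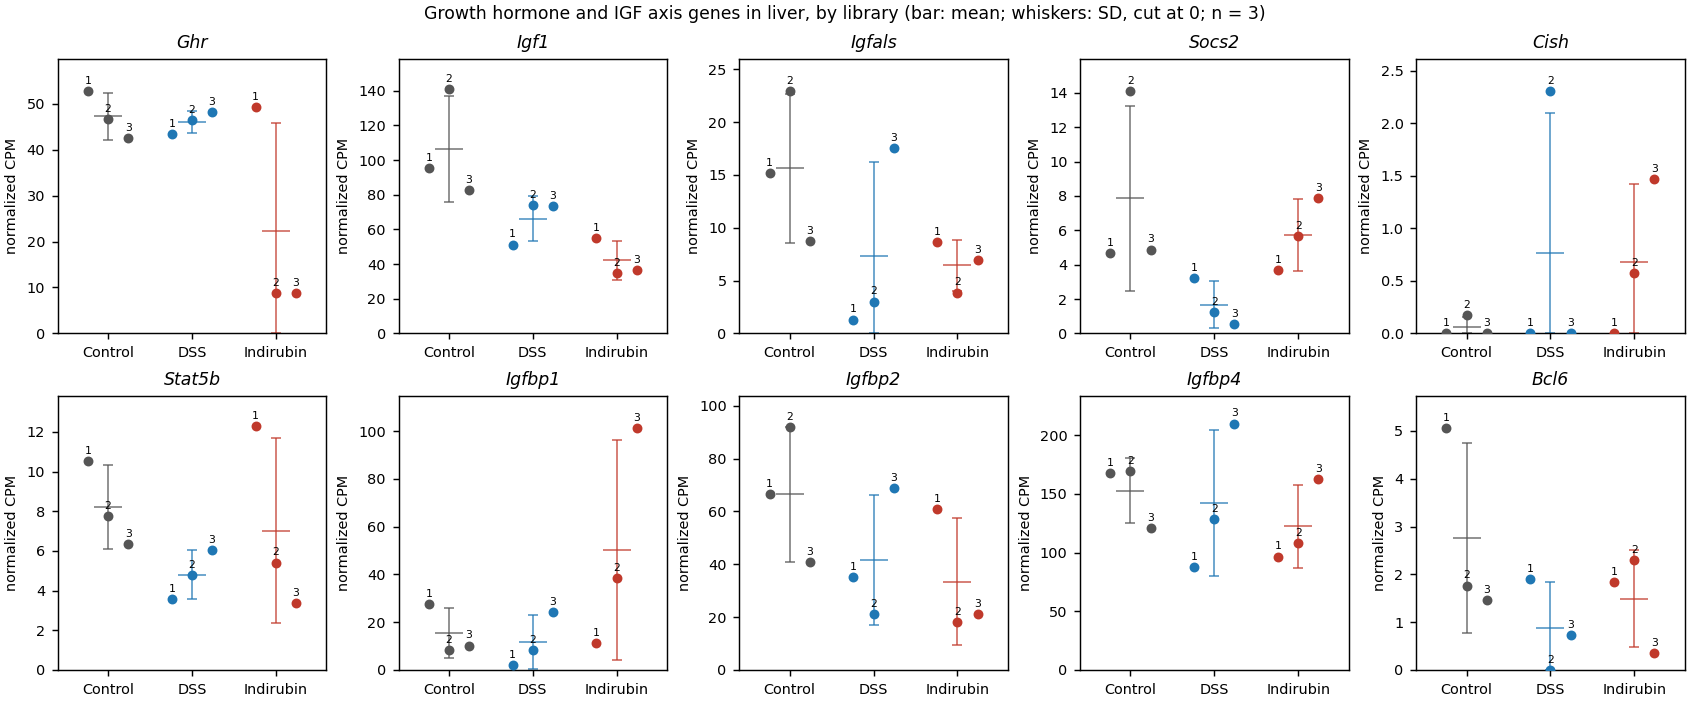
Normalized CPM (y axis) of the 10 members in each library, numbered by replicate, in the Control, DSS and Indirubin groups (x axis); the horizontal bar is the mean and the whiskers the SD (n = 3), cut at 0. Ghr is at 8.77 and 8.81 CPM in Indirubin-2 and Indirubin-3, and all 3 Indirubin values of Igf1 lie below all Control values.

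Indirubin was compared with DSS to ask what the compound changed on top of colitis. Of the 9 members tested (Cish had too few reads), 2 had an unadjusted p under 0.05 in edgeR's quasi-likelihood test, Igfbp1 and Socs2, both higher with indirubin, against a background of 7.68% of the 9117 genes tested. No member, and 0.0% of all genes, had an adjusted p under 0.05 after Benjamini-Hochberg correction; DESeq2 called 80 of the genes and 0 members. The groups did not overlap for 1 member, Socs2, against 16.4% of all genes. The members' median log2 fold change was -0.20 and that of all genes 0.15.

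DSS was compared with Control, the mice labelled water, to ask what went with colitis, with the limit that Control mice may also have drunk DSS. All 8 members tested had a negative log2 fold change, with a median of -0.64 where the median of all genes was 0.01. Of these, 1, Socs2, had an unadjusted p under 0.05 (background 7.52% of 7482 genes) and 0 had an adjusted p under 0.05 (background 0.708%, or 53 genes; DESeq2 also called 0 members). Igf1, Socs2 and Stat5b were lower in every DSS library than in every Control library, which made 3 members without overlap against 15.6% of all genes.

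Indirubin was also compared with Control. Of 9 members tested, 3 had an unadjusted p under 0.05, namely Igf1 and Igfals, which were lower, and Igfbp1, which was higher, where 13.8% of 8059 genes did. None had an adjusted p under 0.05 in edgeR (background 0.236%, or 19 genes), and DESeq2 gave 1, Igf1. Igf1 and Igfals did not overlap, 2 members against 21.6% of all genes; Igfals did overlap when libraries were scaled by their nuclear total alone. The 3 comparisons share libraries, so none is independent of the other 2.

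**Figure D2:**
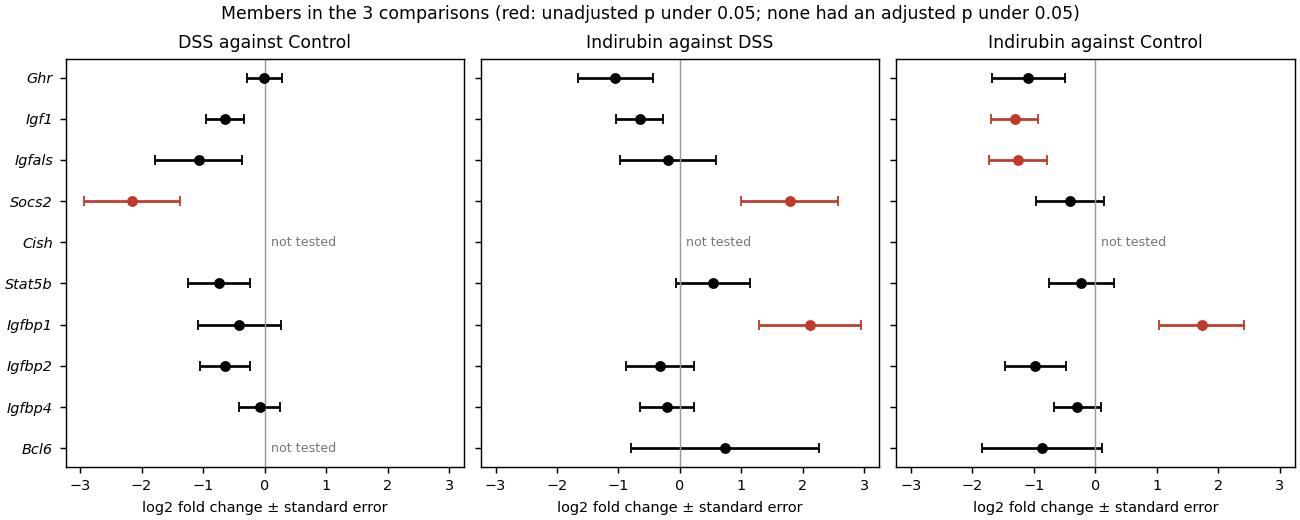
Log2 fold change (x axis, with standard error as whiskers) of each member (y axis) in the 3 comparisons; red marks an unadjusted p under 0.05 in edgeR's quasi-likelihood test, and no member had an adjusted p under 0.05. Igf1 lies left of 0 in all 3 panels, Igfbp1 lies right of 0 in both Indirubin panels, and Socs2 changes side between DSS against Control and Indirubin against DSS.

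Ghr, the growth hormone receptor (ENSMUSG00000055737, GRCm39 chromosome 15, 3347242 to 3612974, minus strand), was measured at 52.7, 46.7 and 42.6 CPM in the Control libraries and at 43.4, 46.4 and 48.2 CPM in the DSS libraries. The 3 Indirubin libraries held 49.4, 8.77 and 8.81 CPM. Control and DSS overlapped, while the Indirubin group was split: Indirubin-1 lay within the range of the other groups and Indirubin-2 and Indirubin-3 lay far below every other library. The log2 difference between DSS and Control was 0.00 with an interval of 2 standard errors from -0.58 to 0.57. Indirubin against DSS had a log2 fold change of -1.05 ± 0.61 (SE, edgeR adjusted p = 0.783), and against Control it was -1.09 ± 0.60 (edgeR adjusted p = 0.459). Without Indirubin-1 these became -2.49 (edgeR adjusted p = 0.00627) and -2.54 (edgeR adjusted p = 0.00104), so 1 library decided whether Ghr passed the threshold. Leaving out Indirubin-2 or Indirubin-3 in turn gave -0.67 in each case against DSS, and -0.71 and -0.72 against Control.

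The genes whose pattern over the 9 libraries was most like that of Ghr, of 3047 nuclear genes with at least 10 reads in every library, were Akr1c6 (Pearson r = 0.99 on log2 CPM), Cyp3a11 (r = 0.989) and Ces1f (r = 0.98). Akr1c6 and Cyp3a11 encode a steroid-metabolizing reductase and a drug-metabolizing cytochrome P450, and Ces1f a carboxylesterase. Akr1c6 held 73.8 CPM in Indirubin-1 and 4.10 and 3.02 CPM in Indirubin-2 and Indirubin-3, with 52.9 to 105 CPM in the other 6 libraries. The 9 points share library, depth and tissue makeup, and the correlations are a description.

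Stat5b, the transcription factor that carries the growth hormone signal to the nucleus (ENSMUSG00000020919, chromosome 11, 100671557 to 100741550, minus strand), had 10.5, 7.75 and 6.33 CPM in Control, 3.56, 4.78 and 6.03 CPM in DSS and 12.3, 5.41 and 3.37 CPM in Indirubin. The DSS libraries all lay below the Control libraries, by a narrow margin, and the Indirubin libraries spanned both. DSS against Control gave a log2 fold change of -0.74 ± 0.50 (SE, edgeR adjusted p = 0.898).

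Igf1, the growth factor that the liver releases into the blood (ENSMUSG00000020053, chromosome 10, 87694127 to 87772904, plus strand), had 95.5, 141 and 82.6 CPM in Control. It had 51.2, 74.3 and 73.4 CPM in DSS and 54.9, 34.7 and 36.6 CPM in Indirubin. Every DSS and every Indirubin library lay below every Control library; DSS and Indirubin overlapped through Indirubin-1, which lay above DSS-1. The group means were 106 ± 30.7 (SD, n = 3), 66.3 ± 13.1 and 42.1 ± 11.1 CPM. The log2 fold change was -0.64 ± 0.31 for DSS against Control (SE, edgeR adjusted p = 0.694), -0.66 ± 0.39 for Indirubin against DSS (adjusted p = 0.791) and -1.31 ± 0.38 for Indirubin against Control (adjusted p = 0.151). Without Indirubin-1, the difference between Indirubin and Control was -1.68 with an edgeR adjusted p of 0.0111. The most similar patterns to Igf1 were those of Cdhr5, a cadherin family member (r = 0.962), Glyat, glycine N-acyltransferase (r = 0.959), and Gatd3a (r = 0.957), again as a description over 9 libraries.

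Igfals, the acid-labile subunit (ENSMUSG00000046070, chromosome 17, 25084971 to 25100984, plus strand), had 15.2, 22.9 and 8.77 CPM in Control, 1.30, 3.01 and 17.6 CPM in DSS and 8.63, 3.85 and 6.91 CPM in Indirubin. All Indirubin libraries were below all Control libraries, with Indirubin-1 just under Control-3, and DSS-3 was within the Control range. The log2 fold change was -1.26 ± 0.47 for Indirubin against Control (SE, edgeR adjusted p = 0.254) and -1.07 ± 0.71 for DSS against Control (edgeR adjusted p = 0.893). Without DSS-3 the latter was -2.79, and the unadjusted p of the former rose above 0.05 without Control-2 or Indirubin-2.

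Socs2, a suppressor of cytokine signalling that STAT5 induces and that limits growth hormone action (ENSMUSG00000020027, chromosome 10, 95221224 to 95253042, minus strand), had 4.67, 14.1 and 4.87 CPM in Control. It had 3.20, 1.24 and 0.55 CPM in DSS, which were 27, 7 and 6 reads, and 3.67, 5.65 and 7.86 CPM in Indirubin. The DSS libraries lay below every library of both other groups, while Control and Indirubin overlapped. The log2 fold change was -2.16 ± 0.78 for DSS against Control (SE, edgeR adjusted p = 0.436) and 1.78 ± 0.79 for Indirubin against DSS (edgeR adjusted p = 0.630). The gap between DSS-1 and Indirubin-1 was narrow, and the estimate against DSS ranged from 1.34 to 2.59 as each library was left out in turn. Its unadjusted p stayed under 0.05 against DSS when DSS-1 was left out and rose above it without any one of the other 5, and in DSS against Control it rose above 0.05 without Control-2 or DSS-3.

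Cish, the other STAT5-induced inhibitor (ENSMUSG00000032578, chromosome 9, 107173225 to 107179983, plus strand), had 0, 1 and 0 reads in Control, 0, 13 and 0 in DSS and 0, 7 and 17 in Indirubin. It was at 0 in 5 of the 9 libraries, and its difference between groups was not detectable at this depth. Bcl6, a repressor that acts against STAT5 at many liver genes (ENSMUSG00000022508, chromosome 16, 23783802 to 23807602, minus strand), had 5.06, 1.76 and 1.46 CPM in Control, 1.90, 0.00 and 0.73 CPM in DSS and 1.84, 2.29 and 0.35 CPM in Indirubin. The groups overlapped, and the log2 fold change of Indirubin against Control was -0.87 with an interval of 2 standard errors from -2.83 to 1.09.

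The sequence around the start site is shown for 3 of the 4 members whose windows held a letter match to a site that the axis is known to use; Bcl6, which had 0 to 28 reads per library, is not shown. RefSeq promoter windows (GRCm38.p6, 250 bases before to 50 after a start site) were found for 9 of the 10 members, 15 windows in all; Socs2 was not matched. The palindromic STAT site TTCNNNGAA, which reads the same on both strands, was present in 5 of these windows, of Igfals, Cish and Bcl6, and in 8.30% of 32851 mouse windows of the same length. The Cish window chr9:107296409-107296708 (plus strand) held a match that begins at the start site and another 11 bases after it, and an Igfals window, chr17:24877981-24878280 (plus strand), held a match 58 bases before its start site. CAAAACA, the core of the insulin response element that FOXO factors bind, searched on both strands, was present in 6.28% of all windows and in that of Igfbp1, chr11:7197537-7197836 (plus strand), 108 bases before the start site; the 2 motifs share no bases in these windows. Matches are in capitals, and a match of letters is not evidence of binding.
Cish: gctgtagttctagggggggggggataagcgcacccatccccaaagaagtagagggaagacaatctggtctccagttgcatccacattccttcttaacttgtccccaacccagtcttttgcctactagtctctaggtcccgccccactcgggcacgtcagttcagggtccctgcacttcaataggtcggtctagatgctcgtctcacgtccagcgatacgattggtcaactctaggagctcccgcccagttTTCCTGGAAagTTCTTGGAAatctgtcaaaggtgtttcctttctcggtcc
Igfals: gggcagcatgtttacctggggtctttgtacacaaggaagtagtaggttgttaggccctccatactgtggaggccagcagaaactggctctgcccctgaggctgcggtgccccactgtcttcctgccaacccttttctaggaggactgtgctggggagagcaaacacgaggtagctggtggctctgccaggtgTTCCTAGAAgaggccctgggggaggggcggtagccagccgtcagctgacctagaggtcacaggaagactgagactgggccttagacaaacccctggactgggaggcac
Igfbp1: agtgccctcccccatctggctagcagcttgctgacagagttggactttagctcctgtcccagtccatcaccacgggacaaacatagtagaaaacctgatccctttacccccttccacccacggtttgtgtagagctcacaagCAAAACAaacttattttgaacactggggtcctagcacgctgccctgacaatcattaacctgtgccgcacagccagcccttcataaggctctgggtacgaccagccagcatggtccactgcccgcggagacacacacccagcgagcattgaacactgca

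Igfbp1, the binding protein that insulin represses (ENSMUSG00000020429, chromosome 11, 7147782 to 7152546, plus strand), had 27.6, 8.46 and 10.2 CPM in Control and 2.13, 8.33 and 24.1 CPM in DSS. It had 11.4, 38.4 and 101 CPM in Indirubin, from 62, 468 and 1172 reads. Indirubin-2 and Indirubin-3 lay above all 6 other-group libraries, and Indirubin-1 lay among them. The log2 fold change was 2.12 ± 0.83 for Indirubin against DSS (SE, edgeR adjusted p = 0.567) and 1.73 ± 0.69 for Indirubin against Control (edgeR adjusted p = 0.286). Without Indirubin-3 these were 1.11 (edgeR adjusted p = 1.00) and 0.73 (edgeR adjusted p = 0.793). The unadjusted p also rose above 0.05 without DSS-1 or DSS-2 against DSS, and without Control-2 or Control-3 against Control. The patterns most like that of Igfbp1 were those of Epb41, a membrane skeleton protein (r = 0.95), Plaa (r = 0.91) and Lpgat1, a lysophosphatidylglycerol acyltransferase (r = 0.902), as a description over the 9 libraries.

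Igfbp2, which growth hormone and insulin are known to lower (ENSMUSG00000039323, chromosome 1, 72863662 to 72891633, plus strand), had 66.5, 92.0 and 40.9 CPM in Control, 35.2, 21.1 and 68.8 CPM in DSS and 61.0, 18.0 and 21.3 CPM in Indirubin. The 3 groups overlapped. Indirubin-1 again lay within the Control range, while Indirubin-2 and Indirubin-3 lay below all Control libraries. Indirubin against Control gave -0.98 ± 0.50 (log2 fold change and SE, edgeR adjusted p = 0.416), and -1.86 (edgeR adjusted p = 0.0147) without Indirubin-1.

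Igfbp4, a binding protein that restrains IGF-1 in tissues (ENSMUSG00000017493, chromosome 11, 98932070 to 98945218, plus strand), had 168, 170 and 121 CPM in Control, 87.5, 128 and 210 CPM in DSS and 96.6, 108 and 163 CPM in Indirubin. The groups overlapped in all 3 comparisons. Its log2 fold change was -0.21 for Indirubin against DSS with an interval of 2 standard errors from -1.10 to 0.67, and -0.08 for DSS against Control with an interval from -0.74 to 0.59.

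**Figure D3:**
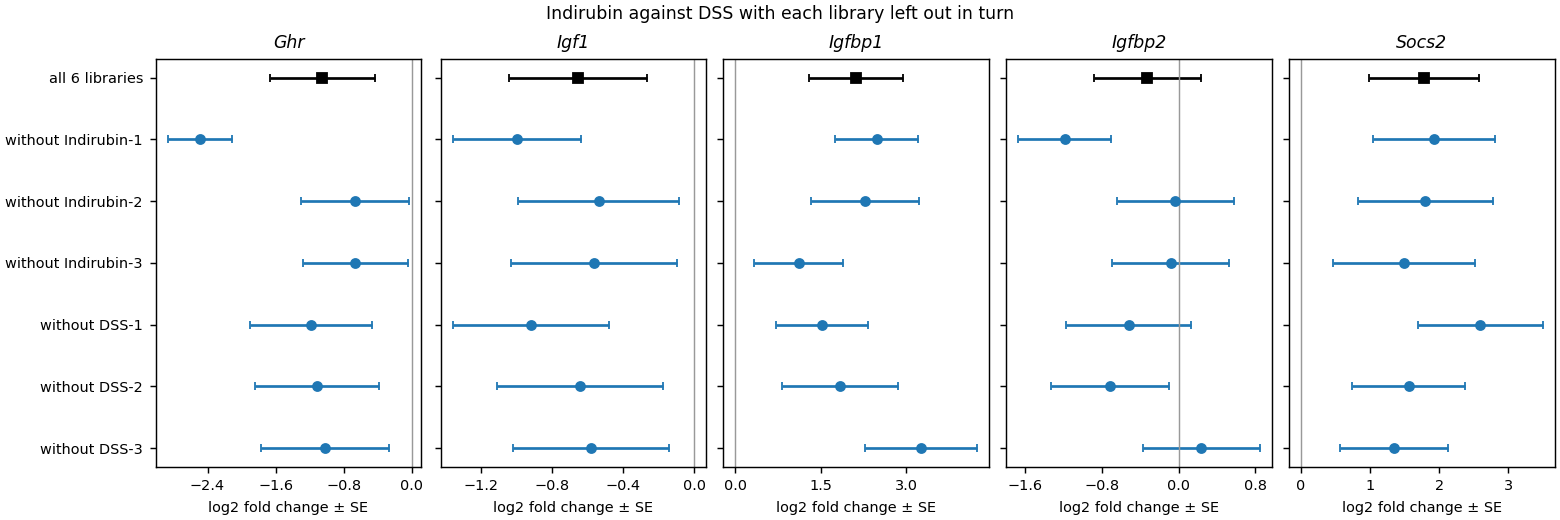
Log2 fold change of Indirubin against DSS (x axis, standard error as whiskers) for 5 members with all 6 libraries (black squares) and with each library left out in turn (blue circles, y axis). Ghr moves from -1.05 to -2.49 without Indirubin-1, Igfbp1 lies between 1.11 and 3.27, and Socs2 stays above 0.

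The makeup of IGF binding protein transcripts was described as each gene's share of the summed RPKM of 7 binding protein genes, Igfbp1 to Igfbp7. Igfbp4, Igfbp2 and Igfbp7 made up most of this sum in Control and DSS, where Igfbp1 was 2.37% to 13.4% of it. Igfbp1 was 8.35%, 28.4% and 44.1% in the Indirubin libraries, while Igfbp2 was 36.9%, 11.0% and 7.64%. Indirubin-2 and Indirubin-3 thus had a higher Igfbp1 share and a lower Igfbp2 share than each of the other 7 libraries, and Indirubin-1 had shares within the range of the other groups. The share of Igfbp4 was 25.5% ± 1.78 (SD, n = 3) in Indirubin, 29.7% ± 1.54 in Control and 40.5% ± 7.16 in DSS. The ratio of Igfbp1 to Igf1 CPM was 0.0417 to 0.329 over the 6 Control and DSS libraries and 0.207, 1.10 and 2.76 in the Indirubin libraries. These shares and ratios were not tested.

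**Figure D4:**
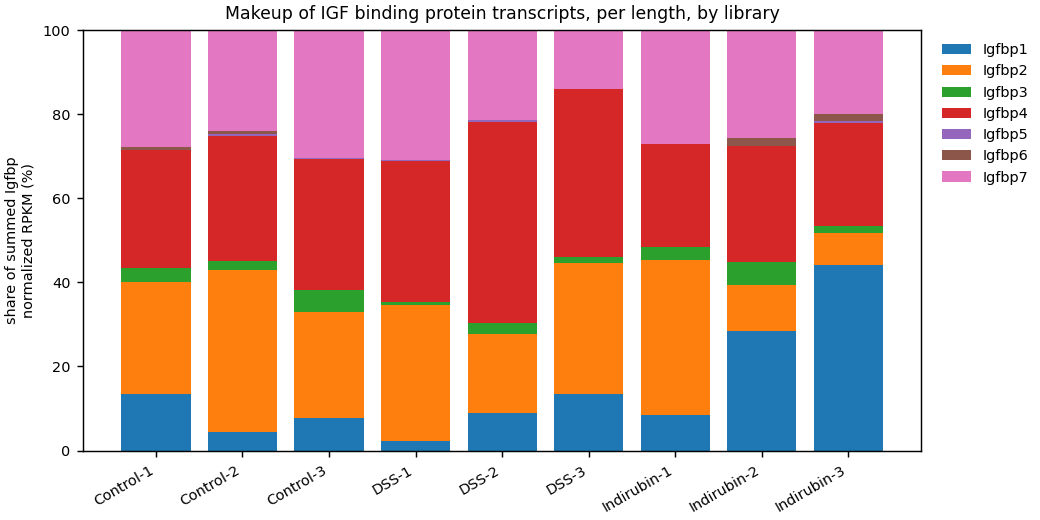
Share of each of 7 IGF binding protein genes (colours) in their summed normalized RPKM (y axis, percent) in each of the 9 libraries (x axis). Igfbp1 takes 28.4% and 44.1% in Indirubin-2 and Indirubin-3 and at most 13.4% in the other 7 libraries.

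Further genes of the axis came from lists, each described by its counts, to be read against the background of 7.68% of all genes with an edgeR p under 0.05 between Indirubin and DSS. Of 20 genes of growth hormone receptor signalling, 16 were tested between Indirubin and DSS and 0 had an edgeR p under 0.05, or an adjusted p under 0.05. The smallest p-values among those higher with indirubin belonged to the kinase Jak2 (log2 fold change 1.24, edgeR adjusted p = 0.858), the glucocorticoid receptor Nr3c1 (1.09) and the phosphatase Ptpn2 (1.29). The last 2 rested on Indirubin-1: without it Nr3c1 was at -0.38 and Ptpn2 at 0.08. Among those lower they belonged to the adaptor Sh2b1 (-1.05), the phosphatase Ptpn6 (-0.28) and Stat5a (-0.56). The list's median was 0.25 where that of all genes was 0.15. Between DSS and Control, 15 were tested, of which 1 had an edgeR p under 0.05 and was higher (Ptpn6, 1.18) and 3 were lower, against a background of 7.52% of all genes; 0 had an adjusted p under 0.05 (background 0.708%). Among those 3 were Jak2 (-1.96) and the insulin receptor substrate Irs2, which had 0 reads in all DSS libraries and 2.64 to 3.50 CPM in Control. The unadjusted p of Ptpn6 rose above 0.05 without Control-2, Control-3 or DSS-1, and that of Jak2 without Control-3, DSS-2 or DSS-3.

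Of 14 genes for IGF ligands, receptors, other binding proteins and their proteases, 5 had enough reads to be tested between Indirubin and DSS, and Igf2, the fetal ligand, had 0 reads in all 9 libraries. Igfbp3, the main carrier of IGF-1 in serum, was the 1 of them with an edgeR p under 0.05. It had 14.6, 8.46 and 14.9 CPM in Control, 1.19, 4.78 and 4.48 CPM in DSS and 8.997, 14.9 and 8.12 CPM in Indirubin. Like Socs2, its DSS libraries lay below every library of both other groups. The log2 fold change was -1.84 ± 0.57 for DSS against Control (SE, edgeR adjusted p = 0.298) and 1.62 ± 0.59 for Indirubin against DSS (edgeR adjusted p = 0.519). Against DSS, the unadjusted p rose above 0.05 without Indirubin-2 or DSS-1. Igfbp7, a binding protein of endothelial and stromal cells, was at -0.95 (edgeR adjusted p = 0.372) for DSS against Control and at 0.69 (edgeR adjusted p = 0.754) for Indirubin against DSS, without overlap in either. The summed level of 6 sinusoidal endothelial markers was 18.3 to 33.7 CPM in DSS, 28.3 to 60.9 CPM in Control and 46.8 to 56.4 CPM in Indirubin, and that of 8 stellate cell and fibroblast markers was 62.9 to 96.1, 109 to 176 and 93.1 to 183 CPM. The part of these cell types in the Igfbp3 and Igfbp7 values was not tested. Igf1r, the IGF-1 receptor, was at 0 reads in all Control libraries and 2 of the DSS libraries, and had 0.551, 2.38 and 4.32 CPM in Indirubin. Igf2r, the receptor that clears IGF-2, was the tested gene with a negative log2 fold change (-0.75, edgeR adjusted p = 0.935).

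Male-biased liver genes that depend on the male growth hormone pattern, a list of 12, were all tested between DSS and Control and all had a negative log2 fold change. The list was chosen with earlier results of these data known, so its counts in each comparison are a description and not an independent test. Of the 12, 10 had an edgeR p under 0.05 and 5 had an adjusted p under 0.05, where the background was 7.52% and 0.708% of all genes, and the list's median was -2.17. The 5 that fell were Selenbp2, a selenium-binding protein (-5.32 ± 0.60, SE, edgeR adjusted p = 0.00142), Elovl3, a fatty acid elongase (-3.37, adjusted p = 0.0103), Gstp1, a glutathione transferase (-1.76, adjusted p = 0.0120), Hsd3b5, a steroid dehydrogenase (-3.32, adjusted p = 0.0142), and Mup20, the urinary pheromone darcin (-1.52, adjusted p = 0.0422). Elovl3 had 104, 121 and 113 CPM in Control, 8.65, 19.8 and 3.29 CPM in DSS and 30.7, 0.00 and 1.30 CPM in Indirubin. No DSS or Indirubin library reached the Control range. As each library was left out in turn, 9 to 12 of the list had an unadjusted p under 0.05, but the number with an adjusted p under 0.05 was 1 without Control-2, 2 without Control-3 or DSS-3, 3 without Control-1 or DSS-2 and 5 without DSS-1. It was 0 when all 9 libraries were fitted together and 7 with DESeq2.

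Between Indirubin and Control, all 12 had a negative log2 fold change, 10 had an edgeR p under 0.05 (background 13.8%) and 0 had an adjusted p under 0.05 (background 0.236%); DESeq2 gave 6 with an adjusted p under 0.05. For all 12, each Indirubin library lay below each Control library (background 21.6% without overlap), and the median log2 fold change was -3.24. Without Indirubin-1, 12 had an edgeR p under 0.05 and 10 an adjusted p under 0.05, where 1700 and 465 of all 9721 genes tested did. Cyp4a12b, a cytochrome P450, had 0 reads in all DSS and all Indirubin libraries, and placing it at its bound of 3 reads per group left both medians as they were. Between Indirubin and DSS, 8 were tested, all with a negative log2 fold change and 0 with an edgeR p or adjusted p under 0.05; the smallest p-values were those of Mup20 (-1.49, edgeR adjusted p = 0.840), Cyp2d9 (-0.61) and Cyp7b1 (-1.87). Mup20 had 119, 180 and 185 CPM in DSS and 156, 3.11 and 13.3 CPM in Indirubin, the same split of libraries as for Ghr. Without Indirubin-1, 9 of the list were tested against DSS, of which 5 had an edgeR p under 0.05, all lower, and 1 an adjusted p under 0.05, where 1122 and 134 of all 10817 genes tested did. Of the 6 fits that left out a library, the shared negative sign held only in that one: 5 of 10 tested were negative without Indirubin-2 (median 0.08), without Indirubin-3 (median 0.09) or without DSS-2 (median 0.00), 7 of 10 without DSS-1 and 6 of 9 without DSS-3, with 0 at an edgeR p under 0.05 in each. With all 9 libraries in one fit, 9 of 12 were negative.

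Of 16 female-biased genes, 2 had enough reads to be tested between Indirubin and DSS, and 8, among them Cyp3a41a and Sult2a1, had 0 reads in every library. Cyp17a1, a steroid hydroxylase, had 0.593, 3.19 and 0.731 CPM in DSS and 0.00, 14.9 and 21.0 CPM in Indirubin (log2 fold change 3.06, edgeR adjusted p = 0.543). Its unadjusted p rose above 0.05 without Indirubin-2, Indirubin-3, DSS-1 or DSS-3, whereas without Indirubin-1 Cyp17a1 was at 3.53 against DSS (edgeR adjusted p = 0.0345). In that fit without Indirubin-1, 6 of the list were tested and 2, Cyp17a1 among them, had an adjusted p under 0.05. The number called of all 10817 genes tested in that fit is given above with the male-biased genes. Of its group the fit kept only Indirubin-2 and Indirubin-3, the libraries with the high pancreatic acinar sums. The part of pancreatic RNA in these calls was not tested. Prlr, the prolactin receptor, had 8.17, 6.34 and 3.41 CPM in Control, 11.0, 16.1 and 26.9 CPM in DSS and 6.98, 4.92 and 3.89 CPM in Indirubin. DSS lay above both other groups without overlap, at 1.61 against Control (edgeR adjusted p = 0.221), and Indirubin was at -1.79 against DSS (edgeR adjusted p = 0.433).

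**Figure D5:**
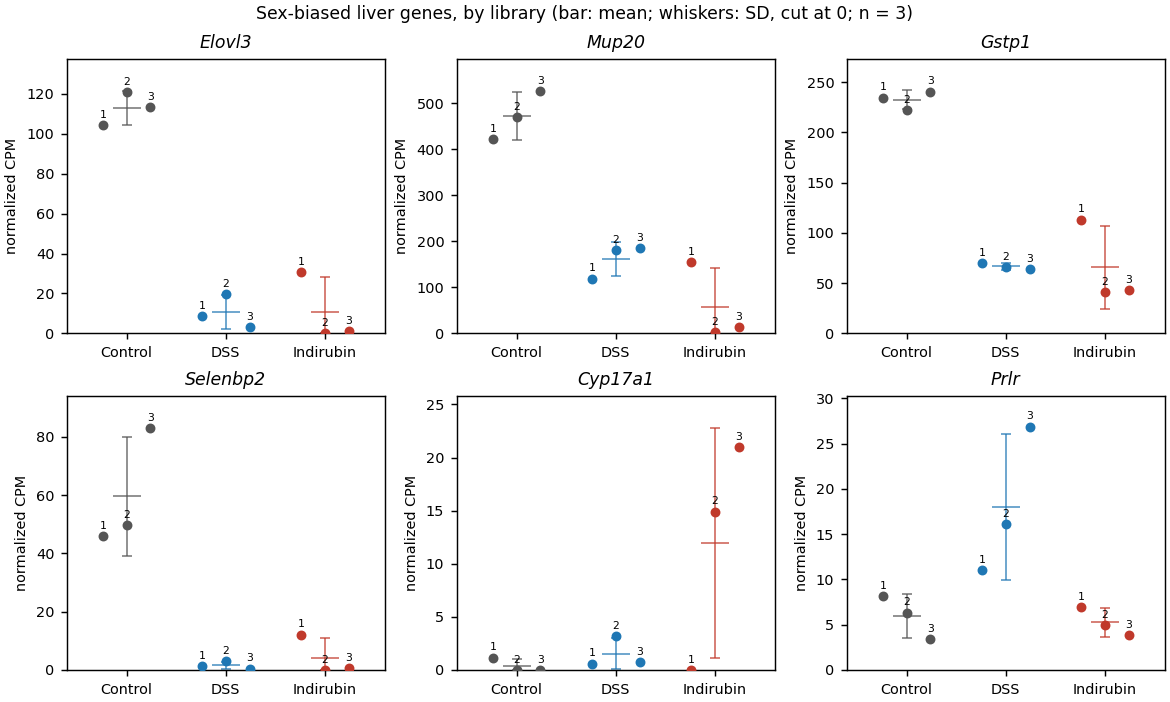
Normalized CPM (y axis) of 4 male-biased genes (Elovl3, Mup20, Gstp1, Selenbp2) and 2 female-biased genes (Cyp17a1, Prlr) in each library, numbered by replicate, by group (x axis); bars are means and whiskers SD (n = 3), cut at 0. Each of these 4 male-biased genes is higher in all 3 Control libraries than in any other library, and Prlr is higher in all 3 DSS libraries than in any other library. The 4 were picked from the 5 with an edgeR adjusted p under 0.05 between DSS and Control. Of the whole list of 12, 10 did not overlap in that comparison, against 15.6% of all genes.

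Of 10 liver transcription factors known to act on these promoters, 8 were tested between Indirubin and DSS and 1 had an edgeR p under 0.05, with 0 at an adjusted p under 0.05. It was Cebpb, a factor of the acute-phase response, with 10.3, 1.06 and 10.1 CPM in DSS and 17.3, 20.7 and 21.3 CPM in Indirubin (log2 fold change 1.45, edgeR adjusted p = 0.618). Control had 8.17, 10.04 and 10.5 CPM, so that the 3 Indirubin libraries were the highest of the 9. The unadjusted p rose above 0.05 when any library but DSS-1 was left out. Foxa3 (0.74), Nr1h4 (0.38) and Cebpa (-0.33) had larger p-values.

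Of 9 insulin- and FOXO-regulated genes in the table, 6 were tested between Indirubin and DSS and 1 had an edgeR p under 0.05, with 0 at an adjusted p under 0.05. It was G6pc, the glucose-6-phosphatase that releases glucose from the liver, with 38.1, 23.1 and 24.1 CPM in Control, 12.7, 5.32 and 23.6 CPM in DSS and 8.26, 2.70 and 4.49 CPM in Indirubin. Its log2 fold change was -1.45 against DSS (edgeR adjusted p = 0.604) and -2.47 ± 0.47 against Control (SE, edgeR adjusted p = 0.0549), with no overlap between Indirubin and Control. Without Indirubin-1, G6pc against Control was at -3.09 with an edgeR adjusted p of 0.00187. Against DSS, the unadjusted p rose above 0.05 without Indirubin-2, Indirubin-3 or DSS-3. Pck1, the other gluconeogenic enzyme, had 55.4, 51.2 and 132 CPM in DSS and 68.3, 213 and 168 CPM in Indirubin (0.91, edgeR adjusted p = 0.770). G6pc and Pck1, both known to be repressed by insulin as Igfbp1 is, thus had log2 fold changes of opposite sign. Pdk4 (0.96) and Sesn1 (0.68) had larger p-values than Pck1. Of the 6 tested against DSS, 5 had a positive log2 fold change, all but G6pc. Against Control, 7 were tested, of which 3 were higher and 1 lower without overlap, where 21.6% of all genes did not overlap.

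Markers of immune cells were summed in the same way. The summed level of 6 neutrophil genes was 1.17 to 3.65 CPM in Control, 11.5 to 16.7 CPM in DSS and 24.4, 233 and 86.9 CPM in the Indirubin libraries, and that of 8 Kupffer cell and macrophage genes was 78.6 to 137, 93.7 to 101 and 114 to 200 CPM. Of the 6 neutrophil genes, 3 were at 0 reads in all Control and 3 in all DSS libraries. The 5 cholangiocyte markers summed to 3.70 to 13.3 CPM and 6 lymphocyte markers to 1.65 to 11.3 CPM over all libraries. The neutrophil sum was highest in Indirubin-2 and Indirubin-3, where Ghr was lowest and Igfbp1 highest, and its part in those values was not tested.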

How the data were processed

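Bulk RNA sequencing of liver was analysed in 9 libraries, 3 each of Control, DSS and Indirubin mice, sequenced by the authors on a DNBSEQ platform. The authors deposited 1 table of read counts per gene for 56748 genes, whole numbers that are not normalized, with gene positions on GRCm39 (the build in the submitters' processing notes) and a gene length. The aligner, the counter, its use of strand and the annotation release are not given in the sources used here, so reads from antisense or overlapping genes cannot be told apart from those of the member. FPKM columns, the authors' own columns of log2 fold changes and p-values, and 3 gene lists were deposited as well and were not used.

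Counts were scaled by TMM over the 9 libraries for CPM values, and RPKM is that CPM divided by the deposited gene length in kilobases. Each comparison was fitted on its own 6 libraries with edgeR 4.0.16 (R 4.3.3) after filterByExpr (minimum count 10, minimum total 15), by the quasi-likelihood test with Benjamini-Hochberg adjustment over all genes tested; limma 3.58.1 is the package edgeR calls. Standard errors were derived from the F statistic and the fold change. With 3 against 3 libraries an exact two-sided permutation test cannot go below 0.10, so none is given. Alternatives were the size factors and the Wald test of DESeq2 1.42.0, library size alone, leaving out mitochondrial genes, no filter, at least 10 counts in every library, all 9 libraries in one fit, a replicate block and leaving out each library. The same counts for the list of male-biased genes were added after its values had been seen. Tested on counts simulated for Indirubin against DSS (7576 genes), edgeR called 80.2% of genes changed by log2 4 and 9.46% of those changed by log2 2, with 3 false calls among 87, and DESeq2 had 28 false calls among 133.

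The members, the gene lists and the marker lists were chosen with earlier results of these data known. All members are named. In each list the 3 tested genes with the smallest p in each direction of Indirubin against DSS are named, with any other gene that made up a count of 5 or fewer. Some listed genes are counted but not reported here by name. Same-numbered libraries of different groups did not deviate together (correlations from -0.025 to 0.024 over 9713 genes), so they were treated as unpaired. No 2 libraries of a group were duplicates. Promoter windows came from a RefSeq table on GRCm38.p6 and were matched by symbol; their coordinates are on another build than those of the genes.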

Additional observations from a re-analysis of the deposited data

How the results depend on the processing

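Causes were not tested. The fit of all 9 libraries and the fits that left out a library also changed which genes passed the filter, and the DESeq2 test came with its own size factors; the other settings changed 1 choice. Adjusted p under 0.05 was met by 0 genes between Indirubin and DSS, and by 2 with library size alone, 156 with no filter on low counts, 2 with at least 10 counts in every library, 80 with the DESeq2 Wald test, 4 with all 9 libraries in one fit and 3 with a replicate block. In the same order the count for DSS against Control went from 53 to 19, 125, 84, 143, 11 and 30, and for Indirubin against Control from 19 to 266, 379, 72, 316, 56 and 49. Unadjusted p under 0.05 was met by 700 genes between Indirubin and DSS and by 1434 with no filter, by 563 between DSS and Control and by 916 with library size alone, and by 1114 between Indirubin and Control against 2222 with library size alone, 1966 with no filter and 689 with at least 10 counts in every library. Library size alone moved the median log2 fold change of all genes from 0.15, 0.01 and 0.13 to 0.43, 0.70 and 1.11, and the share of genes with an unadjusted p under 0.05 that were higher from 58.0%, 46.2% and 53.9% to 79.8%, 92.2% and 95.2%. Against that shift it turned the sign of Igfbp4 (0.050) between Indirubin and DSS, of Ghr (0.668), Igf1 (0.017), Igfbp1 (0.435), Igfbp2 (0.149) and Igfbp4 (0.665) between DSS and Control, and of Socs2 (0.610), Stat5b (0.550), Igfbp4 (0.716) and Bcl6 (0.095) between Indirubin and Control; each of these values lay below the moved median. Between DSS and Control, Ghr stood at 0.00507 under the filter of 10 counts per library and at 0.000428 with the replicate block, and between Indirubin and DSS, Igfals stood at 0.469 with the replicate block. The same-numbered libraries share only a number. Members with an adjusted p under 0.05 were 1 (Igfbp1) with no filter against both DSS and Control, and 1 (Igf1) with DESeq2 against Control, in place of 0. Members with an unadjusted p under 0.05 were 1 in place of 2 between Indirubin and DSS with at least 10 counts in every library. With no filter they were 3, Ghr (lower) being added, and with the replicate block they were 2, Ghr (lower) in place of Socs2. Between DSS and Control they were 0 under library size alone and under the filter of 10 counts per library, and 2 with no filter, with DESeq2 and with the replicate block, in place of 1. Between Indirubin and Control they were 1 with library size alone and 5 with no filter, in place of 3.

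With each library left out in turn, genes with an adjusted p under 0.05 ranged from 0 to 134 (Indirubin against DSS), 12 to 64 (DSS against Control) and 1 to 465 (Indirubin against Control). The highest counts of both Indirubin comparisons came without Indirubin-1. Unadjusted calls ranged from 482 to 1122 and from 845 to 1700 in the Indirubin comparisons. Members with an adjusted p under 0.05 ranged from 0 to 1 against DSS and from 0 to 3 against Control, and members with an unadjusted p under 0.05 from 0 to 4, 0 to 2 and 1 to 5. Signs turned within these ranges for Igfals (-0.779 to 1.58), Stat5b (-0.232 to 0.875), Igfbp2 (-1.186 to 0.237) and Igfbp4 (-0.575 to 0.17) between Indirubin and DSS, for Ghr (-0.108 to 0.049), Igfbp1 (-1.514 to 0.316) and Igfbp4 (-0.427 to 0.161) between DSS and Control, and for Socs2 (-0.726 to 0.264) and Stat5b (-1.009 to 0.104) between Indirubin and Control. Igf1, Socs2 and Igfbp1 kept their sign against DSS in all settings run, as did Igf1, Ghr and Igfbp1 for Indirubin against Control. The 12 male-biased genes had a negative log2 fold change against Control wherever tested; between Indirubin and DSS all 8 tested did, but 6 of 8 with library size alone, 7 of 8 with the DESeq2 Wald test or the replicate block, 2 of 4 with the stricter filter and 9 of 11 with no filter. Between DSS and Control, library size alone lowered the number with an unadjusted p under 0.05 from 10 to 6, and the stricter filter left 6 to test, all of them called. With 3 libraries a group and few nuclear reads, differences in Cish and Bcl6 were not detectable at this depth.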
